A study of Mus musculus with 6 samples.

Results

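Kinesins are motor proteins that hydrolyse ATP to walk along microtubules or to take their ends apart. Some carry vesicles, organelles, RNA granules or ciliary parts, others separate chromosomes in mitosis and meiosis, and the light chains link the conventional kinesin to its cargo. In the testis they serve the meiotic spindle, the shaping of the spermatid head and the building of the sperm tail. The mRNAs described here are those of the kinesin motors and light chains in mouse testis. They were taken as every probe whose gene symbol, as given by the platform or after updating, begins with Kif, Kifc or Klc and a digit. This gave 45 of the 23473 probes on the array and 43 of the 16390 gene symbols. Of the 45 probes, 4 carried an older name that updates to such a symbol (Kif18b, Kif20b and both Kif26b probes), and 1, named Kns2, carries a name that is now shared by Klc1 and Kif2a, so it is kept as Kns2. Kif7 and Kif26b had 2 probes each, and the probe that was brighter on average stands for the gene.

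The 6 arrays held RNA from testis of C57/BL6 mice. In 2 arrays the RNA had been brought down from a testis lysate with an antibody against MVH, the germ cell RNA helicase also called DDX4; in 2 it had been brought down with normal rabbit IgG, the control for unspecific binding; and 2 held total RNA taken with no antibody (WCE in the labels). Per the labels' protocols the lysates came from dispersed testicular cells, so all groups mix germ cells and somatic cells; age is not given in the sources used here, nor whether arrays 1 and 2 of a group came from separate animals. The p-values therefore measure only the spread between these arrays, which may be technical. In such bulk samples, fewer cells of a type and less RNA per cell cannot be told apart.

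Values are probe intensities scaled to a median of 30 on each array, and differences are on the log2 scale. They are relative to the array median and do not measure how much RNA was recovered. Each array listed 22090 to 22965 probes, and the 2 arrays of a group correlated at 0.978 to 0.988 over all probes and at 0.971 to 0.989 over the kinesin genes. Of the germ cell markers, Ddx4 was listed at 1396 and 1559 with MVH, at 1468 and 1391 with IgG and at 860 and 1306 in total RNA, and Acrv1, Prm1 and Tnp1 were brighter still. Dazl was dimmer, at 30.7 and 60.7 with MVH, 40.3 and 45.9 with IgG, 31.5 and 38.1 on the WCE arrays. Of the 6 germ cell markers, 1 passed between the precipitates. This was Sycp3, a protein of the meiotic chromosome axis, which rose with MVH as the called kinesin genes below did. It was at 422 and 901 with MVH, 229 and 139 with IgG, 292 and 301 on the WCE arrays (log2 MVH minus IgG 1.79 ± 0.40, SE, n = 2 each; adjusted p = 0.0349 by limma), and its part in those results was not tested. Markers of somatic cells were listed too, none at 0. Against IgG, 3 of 4 Leydig cell markers (Cyp17a1, Cyp11a1 and Hsd3b1) and both peritubular markers fell with MVH in limma, while 0 of 5 Sertoli cell and 0 of 4 macrophage markers passed. Of all probes, 3.82% were called higher and 4.15% lower with MVH than with IgG. With only the 4 arrays compared, 0 of 21574 probes passed, so none of these marker calls held in that fit. The summed level of the Leydig cell markers was 459 and 432 with MVH, 2790 and 1663 with IgG, 580 and 1014 on the WCE arrays. That of the peritubular markers Acta2 and Myh11 was 524 and 315 with MVH, 3116 and 1434 with IgG, 383 and 476 on the WCE arrays.

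The first comparison asked which kinesin mRNAs stood higher, or lower, relative to the array median with the MVH antibody than with IgG. Of 42 genes tested, 5 rose (Kif2b, Kif17, Kif7, Kif19a and Kif27) and 1 fell (Kif5b) at a limma adjusted p under 0.05. Kif14, a motor of cytokinesis, was blank on the array of IgG precipitate 2 and could not be tested. The 5 are 11.9% of the genes, where 3.82% of all probes tested were called higher, and the 1 is 2.38%, where 4.15% of all probes were called lower. The median difference was 0.32 over the kinesin genes and 0.07 over all probes, and 32 kinesin genes were positive and 10 negative (76.2% positive, against 55.0% of all probes). Without IgG precipitate 2, which let Kif14 enter, 25 were positive and 18 negative, and without MVH precipitate 1, 27 and 15. Both MVH arrays lay above both IgG arrays for 14 genes (33.3%, against 29.9% of all probes) and below them for 6 (14.3%, against 23.8%). At an unadjusted p under 0.05, 7 genes were higher and 5 lower, where 12.6% and 12.8% of all probes were.

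**Figure D1:**
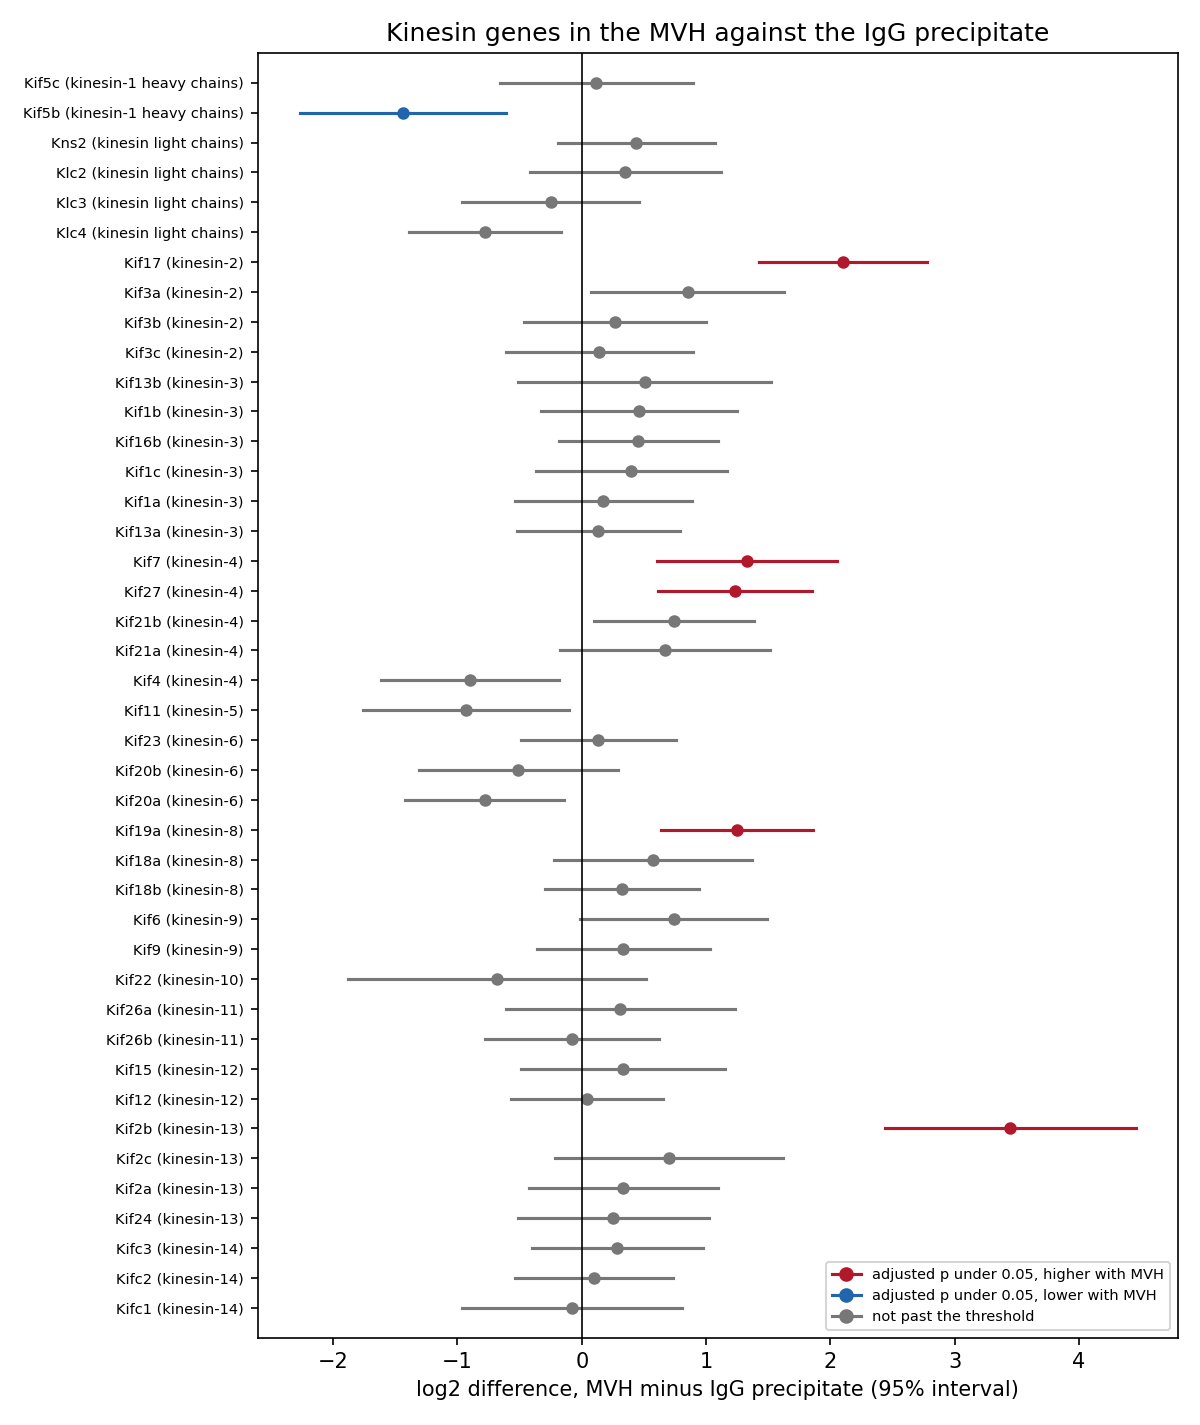
Log2 difference of the MVH minus the IgG precipitate (horizontal axis) for 42 kinesin genes, ordered by family, with points for the limma estimate and lines for the 95% interval. Kif2b at 3.45 and Kif17 at 2.10 stand apart to the right, with Kif7, Kif27 and Kif19a between 1.23 and 1.33, and Kif5b at -1.44 is the called gene to the left.

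The calls lean on how the spread was estimated. When only the 4 arrays compared were fitted, 0 of the 42 genes passed, where 0 of all 21574 probes tested did. In that fit the adjusted p of Kif17 and of Kif2b was 0.0533 by limma. Fewer kinesin genes, and fewer of all probes, passed when any 1 array was left out, which leaves 1 array in a group. Without IgG precipitate 2, the difference of Kif5b was -1.73. The median over the kinesin genes was 0.07 without IgG precipitate 2, where that of all probes was 0.01.

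Kif17 (probe M200011570), a motor of the kinesin-2 family, carries receptor vesicles in neurons and ciliary proteins. In male germ cells it binds the CREM coactivator FHL5, also called ACT, and has been found in the chromatoid body, the RNA granule of spermatids that also holds MVH. Its scaled intensity was 433 and 480 in the MVH precipitates, 90.3 and 125 in the IgG precipitates and 244 and 183 in total RNA. The 3 groups did not overlap, with MVH on top and IgG lowest. Kif17 was 4.29-fold higher with MVH than with IgG (log2 2.10 ± 0.30, SE, n = 2 each; adjusted p = 0.0166 by limma). Leaving out any 1 array gave 1.87 to 2.34. Of the other kinesin-2 genes, Kif3a and Kif3b encode subunits of the motor of intraflagellar transport, the traffic that builds cilia and flagella. Kif3a, which mice need to form the sperm tail, was at 215 and 311 with MVH, 184 and 112 with IgG, 110 and 138 on the WCE arrays. Both MVH arrays were above the other 4, but the difference from IgG of 0.85 did not pass (adjusted p = 0.160). Its partners Kif3b and Kif3c differed by 0.27 and 0.14, with overlapping groups.

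Kif2b (probe M300017632) had the largest difference among the kinesin genes tested. It belongs to the kinesin-13 family, whose members do not walk but depolymerise microtubule ends, and in cultured human cells it acts at the spindle and kinetochores. Its scaled intensity was 410 and 382 with MVH, 61.0 and 21.6 with IgG, 189 and 157 on the WCE arrays. Again the groups did not overlap and IgG was lowest, with IgG precipitate 2 below IgG precipitate 1. Kif2b was 10.9-fold higher with MVH than with IgG (log2 3.45 ± 0.44, SE, n = 2 each; adjusted p = 0.0161 by limma). The difference was 4.19 without IgG precipitate 1 and 2.70 without IgG precipitate 2. The rest of the family moved less. Kif2c, the centromeric depolymerase MCAK, was listed at 4017 and 8199 with MVH, 2708 and 4607 with IgG, 4826 and 4062 on the WCE arrays. These ranges overlap between MVH and IgG, and its difference of 0.70 did not pass (95% interval -0.22 to 1.62). Kif2a, a depolymerase best known from neurons, differed by 0.33 and Kif24, which restrains ciliogenesis at the mother centriole, by 0.25.

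In the kinesin-4 family, Kif27 and Kif7 rose and their relatives did not pass. Kif27 (probe M300009894) serves the assembly of motile cilia in the mouse. It stood at 267 and 314 with MVH, 136 and 112 with IgG, 134 and 146 on the WCE arrays. It was 2.35-fold higher with MVH than with IgG (log2 1.23 ± 0.27, SE, n = 2 each; adjusted p = 0.0324 by limma). Its IgG and total RNA arrays overlapped. Kif27 did not pass with no centring (adjusted p = 0.055) or when any 1 array was left out (0.0515 to 0.17), over a range of 0.00773 to 0.17 in the 16 alternatives. Kif7 (probe M200015437) works at the tip of the primary cilium in Hedgehog signalling. It stood at 106 and 66.3 with MVH, 30.9 and 36.2 with IgG, 58.5 and 74.4 on the WCE arrays, so that MVH and total RNA overlapped and the IgG arrays were below both. It was 2.51-fold higher with MVH than with IgG (log2 1.33 ± 0.32, SE, n = 2 each; adjusted p = 0.0404 by limma). The dimmer second Kif7 probe was flat, at 5.90 and 6.40 with MVH, 6.10 and 5.91 with IgG, 6.10 and 5.90 on the WCE arrays, so the call rests on the brighter probe. It did not hold when any 1 array was left out (adjusted p = 0.0658 to 0.198; 0.00907 to 0.198 over the 16 alternatives). Kif21a and Kif21b, which regulate microtubule growth, differed by 0.67 and 0.74, with both MVH above both IgG arrays. The chromokinesin Kif4 differed by -0.90, with both MVH arrays below both IgG arrays (adjusted p = 0.116).

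Kif19a (probe M300019107), a kinesin-8 that limits the length of motile cilia by shortening microtubules at the tip, was dim throughout. It stood at 17.5 and 15.3 with MVH, 7.30 and 6.49 with IgG, 12.7 and 10.9 on the WCE arrays. As for Kif17 and Kif2b, the 3 groups did not overlap, with MVH on top and IgG lowest. It was 2.38-fold higher with MVH than with IgG (log2 1.25 ± 0.27, SE, n = 2 each; adjusted p = 0.0311 by limma). With an offset added before log2 the difference was 0.93 and passed (adjusted p = 0.0258). With no centring it was 1.51 and did not (0.0506), nor did it when any 1 array was left out (1.15 to 1.35, adjusted p = 0.0551 to 0.137). Over the 16 alternatives the adjusted p was 0.00874 to 0.137. The order of MVH above total RNA above IgG, with no overlap, held for these 3 of the 42 kinesin genes listed on all arrays, or 7.14%, against 5.76% of all such probes. The other kinesin-8 genes, Kif18a and Kif18b, differed by 0.57 and 0.33 between the precipitates and did not pass.

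**Figure D2:**
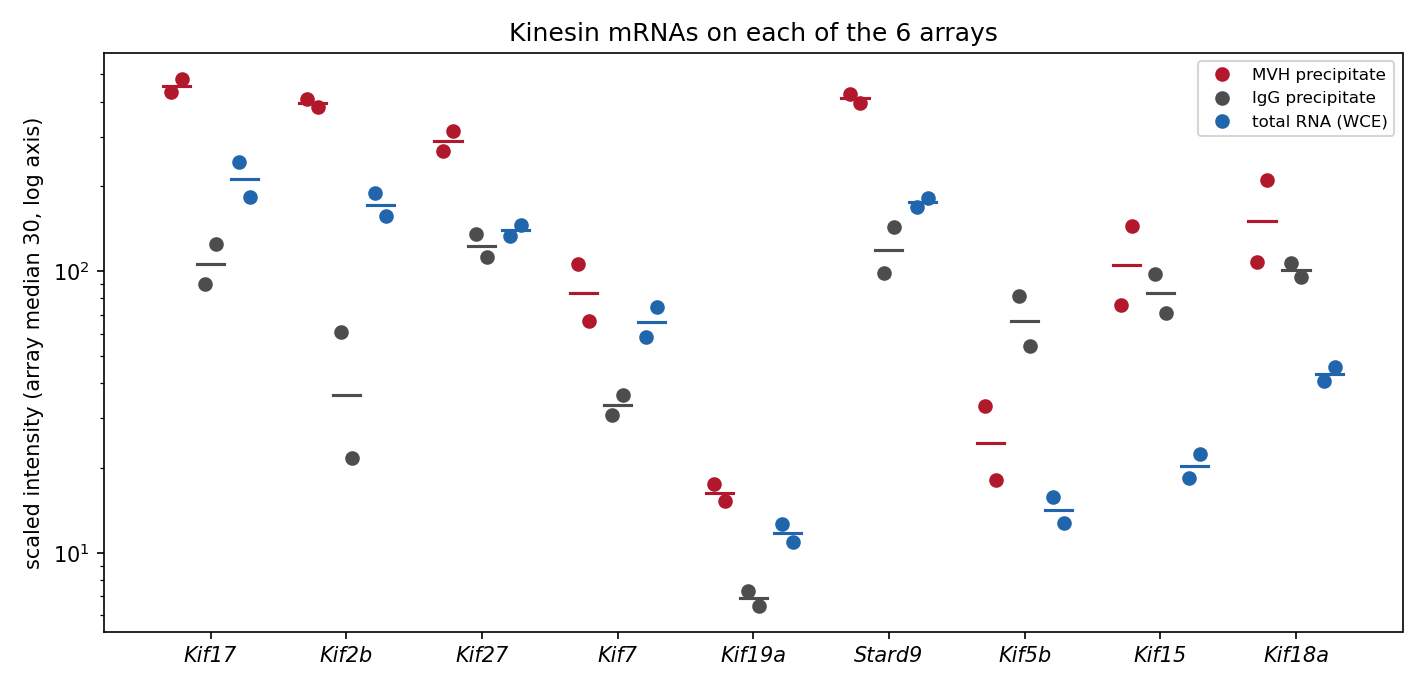
Scaled intensity (vertical log axis, array median 30) of 8 kinesin genes and Stard9 on each array, with points for single arrays and bars for the geometric mean of the MVH precipitates, the IgG precipitates and total RNA. Kif17, Kif2b and Kif19a have MVH on top and IgG at the bottom, Kif5b has IgG on top, and Kif15 and Kif18a have total RNA at the bottom.

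Kif5b was the kinesin gene that fell. It encodes the broadly expressed heavy chain of conventional kinesin, kinesin-1, which carries mitochondria, vesicles and RNA granules. Its probe (M200001303) stood at 33.1 and 18.2 with MVH, 81.5 and 54.2 with IgG, 15.8 and 12.8 on the WCE arrays. The groups did not overlap, with IgG on top and total RNA lowest. Kif5b was 2.71-fold lower with MVH than with IgG (log2 -1.44 ± 0.36, SE, n = 2 each; adjusted p = 0.0475 by limma). With the values not centred the difference was -1.17 and did not pass (adjusted p = 0.168). Nor did it pass with only the 4 arrays compared (adjusted p = 0.0941 by limma). Leaving out any 1 array gave differences of -1.87 to -1.01. The summed Leydig cell and peritubular markers stood highest with IgG as well, at the levels given above, and their part in this result was not tested. The neuronal heavy chain Kif5c differed by 0.12, with overlapping groups. Among the light chains, Klc4 was at 183 and 212 with MVH, 369 and 308 with IgG, 179 and 167 on the WCE arrays. Its IgG arrays were above the other 4, but the difference from MVH of -0.78 did not pass (adjusted p = 0.112). Klc3, the light chain found on outer dense fibres and mitochondria of rat sperm, was at 476 and 565 with MVH, 784 and 485 with IgG, 592 and 534 on the WCE arrays, and its groups overlapped. Klc2 and Kns2 differed by 0.35 and 0.44.

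None of the kinesin-5, kinesin-6, kinesin-10 and kinesin-12 genes passed between the precipitates in limma, and Kif20a and Kif11 were lower with MVH at an unadjusted p under 0.05. Kif20a, a kinesin-6 of the midzone and cytokinesis, was at 499 and 567 with MVH, 984 and 848 with IgG, 785 and 595 on the WCE arrays. Both MVH arrays were below the other 4, and the difference from IgG was -0.78 (95% interval -1.42 to -0.14, adjusted p = 0.124). Kif11, the kinesin-5 that pushes spindle poles apart, differed by -0.93 at dim levels of 7.5 and 10.4 with MVH and 13.1 and 21.6 with IgG. Kif20b and Kif23, both of cytokinesis, differed by -0.51 and 0.13. The chromokinesin Kif22 differed by -0.68, but its IgG arrays were far apart, at 264 and 70.5. Kif15, a kinesin-12 that helps keep the spindle bipolar, and Kif12 differed by 0.33 and 0.04.

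The kinesin-9 genes, whose products lie in cilia and flagella, were among the bright probes. Kif9, which mouse sperm need to swim normally, was listed at 1905 and 2604 with MVH, 1639 and 1905 with IgG, 1363 and 1919 on the WCE arrays. The lower MVH array was above the higher IgG array by less than rounding shows, and the difference was 0.33 (95% interval -0.36 to 1.03). Kif6 was at 998 and 1786 with MVH, 740 and 866 with IgG, 1371 and 1441 on the WCE arrays. Its IgG arrays were the lowest, and the difference of MVH from IgG was 0.74 (95% interval -0.01 to 1.49). Neither passed, and the intervals leave room for differences over 1 on the log2 scale.

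The remaining families held no call. The kinesin-3 genes tested, which carry synaptic vesicles and endosomes in other tissues, ranged from 0.13 for Kif13a to 0.51 for Kif13b, and all 6 were positive. Of these, Kif1b, Kif13b and Kif16b lay in the dimmest 25% of probes, as did Kif14 and the minus-end motor Kifc1. The kinesin-14 genes Kifc1, Kifc2 and Kifc3 differed by -0.08, 0.10 and 0.29. Kifc1 and Kifc5b share older symbols in RefSeq, and which of them the probe reads was not tested. Of the kinesin-11 genes, Kif26a differed by 0.31 and Kif26b by -0.08, where the dimmer Kif26b probe gave 0.48; neither probe passed.

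MVH was next compared with total RNA, which sets relative levels in the precipitate beside those in RNA taken with no antibody. This comparison shares the MVH arrays with the first. None of the 43 kinesin genes passed in limma, where 0.00459% of all probes were called higher and 0.00918% lower. At an unadjusted p under 0.05, 7 were higher and 0 lower, or 16.3% and 0% of the genes, where 4.53% and 4.41% of all probes were. The median was 0.19 over the kinesin genes and -0.02 over all probes. Of the kinesin genes, 33 were positive and 10 negative (76.7% positive, against 47.1% of all probes). The count of positive genes was 25 to 33 when 1 array was left out. Both MVH arrays were above both total RNA arrays for 14 genes (32.6%, against 18.7% of all probes) and below them for 3 (6.98%, against 21.6%). Kif17 differed by 1.11 ± 0.30 (SE, n = 2 each; adjusted p = 0.301 by limma), Kif2b by 1.20 ± 0.44 (adjusted p = 0.456), Kif27 by 1.05 and Kif7 by 0.35. The 95% interval of Kif17 ran from 0.43 to 1.79.

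The largest value was that of Kif15, followed by Kif18a, both named here after their values were seen. Kif15 was at 76.0 and 145 with MVH, 97.7 and 71.1 with IgG, 18.4 and 22.4 on the WCE arrays. Both kinds of precipitate were above total RNA and overlapped each other. Kif15 differed by 2.37 ± 0.36 between MVH and total RNA (SE, n = 2 each; adjusted p = 0.122 by limma). Kif18a, which holds chromosomes at the metaphase plate and whose loss depletes germ cells in mice, was at 108 and 211 with MVH, 107 and 95.3 with IgG, 40.8 and 45.6 on the WCE arrays. Again all 4 precipitates were above total RNA, and the difference for MVH was 1.80 ± 0.35 (adjusted p = 0.174). Kif15 passed in 4 and Kif18a in 3 of 16 alternatives, among them leaving out the dimmest 25% of probes (adjusted p = 0.00883 and 0.0256), over ranges of 0.00477 to 0.82 and 0.0164 to 0.95.

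The third comparison, of the IgG precipitate with total RNA, gives the background of beads and antibody against the same total RNA. It reuses the IgG arrays of the first comparison and the total RNA arrays of the second, so its values are not independent of theirs. Of 42 kinesin genes, 0 were higher and 0 lower in limma, where 0.00934% and 0.00% of all probes were called. At an unadjusted p under 0.05, 7 were higher and 6 lower (16.7% and 14.3%, where 9.35% and 8.86% of all probes were). Kif5b stood 2.22 ± 0.36 higher with IgG (SE, n = 2 each; adjusted p = 0.0542 by limma) and Kif15 2.04 ± 0.36 higher (adjusted p = 0.0562). Kif2b stood at -2.25 ± 0.44 (adjusted p = 0.0646), Kif17 at -0.99, Kif7 at -0.98, Kif19a at -0.77 and Kif27 at -0.18. None of these passed here, yet 8 of 16 alternatives called Kif5b, 6 called Kif15 and 6 called Kif2b. Both IgG arrays were above both total RNA arrays for 11 genes (26.2%, against 20.0% of all probes) and below them for 12 (28.6%, against 29.6%). Both kinds of precipitate were above total RNA for 7 of 42 genes (Kif5b, Kif5c, Kif2a, Kif13a, Kif15, Kif18a and Klc4), or 16.7%, against 5.38% of all probes listed on every array. Both were below it for 1, the dim Kif1b, or 2.38%, against 7.14%. The MVH arrays stood above the other 4 for 7 genes (16.7%, against 11.4%) and below them for 1, Kif20a (2.38%, against 11.5%). The IgG arrays stood above the other 4 for 5 genes (11.9%, against 14.3%) and below them for 9 (21.4%, against 20.0%).

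**Figure D3:**
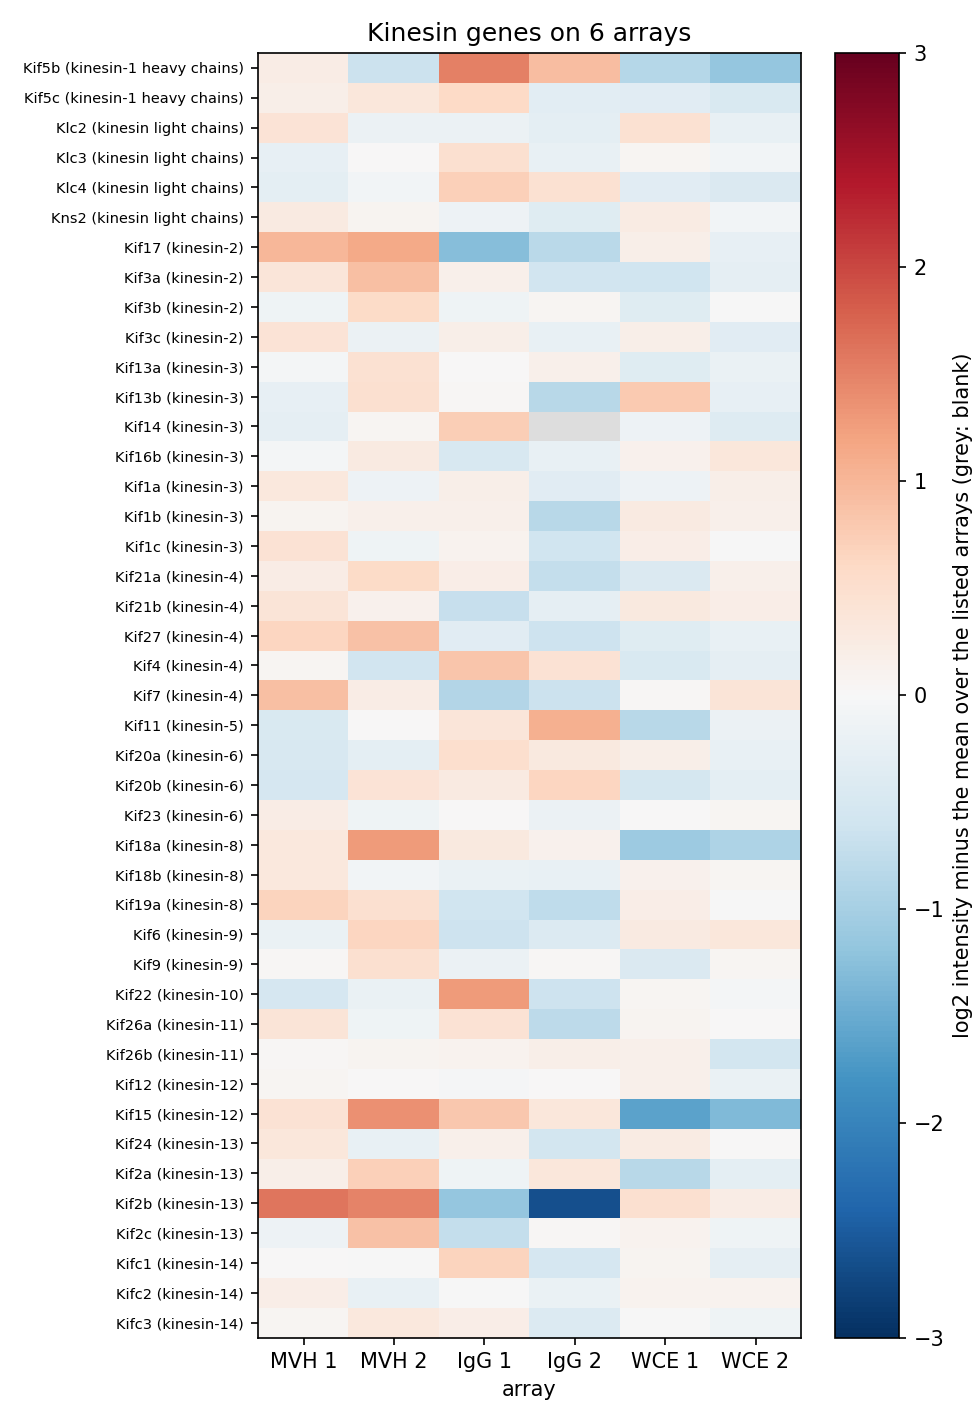
Log2 intensity of each of the 43 kinesin genes (rows, by family) on each array (columns), minus the gene's mean over its listed arrays, from blue (lower) to red (higher), with a blank cell in grey. Kif17, Kif2b and Kif27 are red on both MVH arrays, Kif5b is red on both IgG arrays, and Kif15 and Kif18a are blue on both total RNA arrays.

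Genes that work with kinesins were taken from lists drawn from textbook roles. Of 10 cargo adaptors, 15 intraflagellar transport genes and 11 partners of the spindle motors, 0 passed between the MVH and IgG precipitates in limma. At an unadjusted p under 0.05 there were 1, 2 and 0 higher and 1, 2 and 3 lower, where 12.6% and 12.8% of all probes were. Their medians were 0.12, -0.11 and -0.31. The spindle list holds Cenpe, itself a motor and described again below, which was among its 3 lower genes. Kifap3, the third subunit of the Kif3 motor, differed by -0.16, with overlapping groups. Cluap1 encodes a subunit of the intraflagellar transport train. It was at 88.1 and 159 with MVH, 56.1 and 31.9 with IgG, 58.0 and 42.5 on the WCE arrays. Its difference of 1.49 just missed the threshold (adjusted p = 0.0546 by limma). Ift20, of the same list, differed by -1.155 and did not pass either (adjusted p = 0.0642). Of the 15 intraflagellar transport genes, 7 were positive and 8 negative.

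Of 4 partners of Kif17 in spermatids, 1 fell and none rose, where 4.15% of all probes were called lower and 3.82% higher. Tsn encodes translin, an RNA-binding protein of male germ cells that was found with KIF17. It was at 44.7 and 52.8 with MVH, 125 and 111 with IgG, 56.2 and 69.1 on the WCE arrays (log2 MVH minus IgG -1.28 ± 0.27, SE, n = 2 each; adjusted p = 0.0312 by limma). Its groups did not overlap, and it was lowest with MVH. Tsn did not pass with only the 4 arrays compared, where 0 of 21574 probes did. Fhl5, which encodes the CREM coactivator, was at 8647 and 13810 with MVH, 5962 and 8242 with IgG, 12170 and 16410 on the WCE arrays, and its difference of 0.64 did not pass. Crem and Piwil1, which encodes the piRNA-binding protein MIWI, differed by 0.50 and 0.37.

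**Figure D4:**
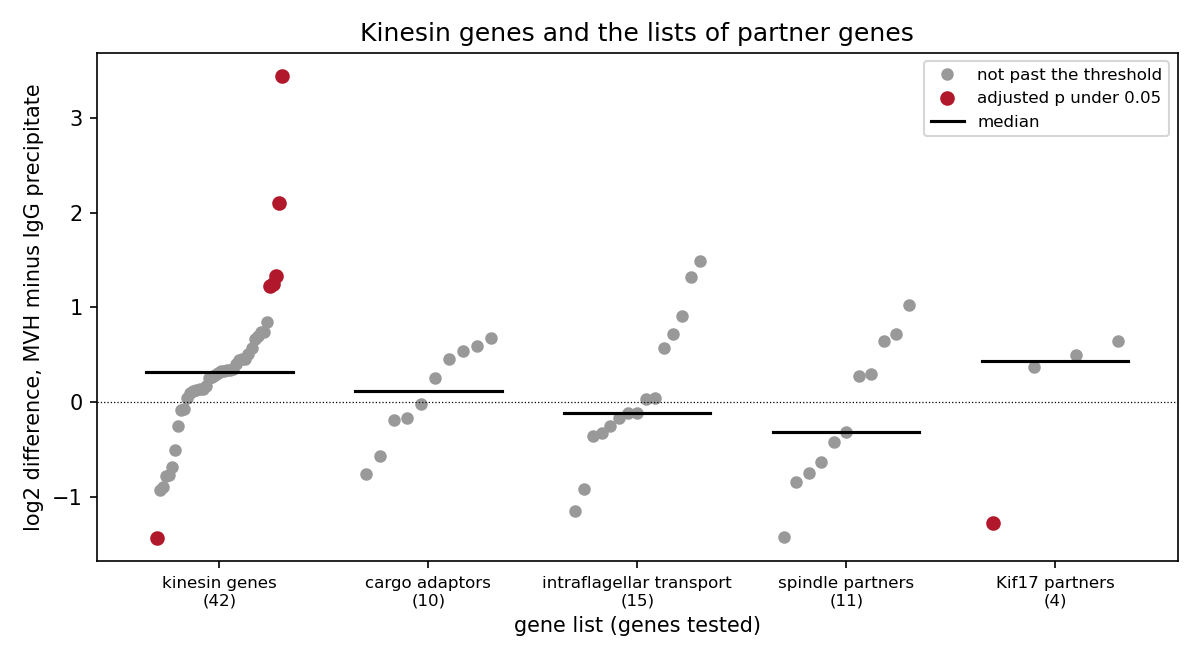
Log2 difference of the MVH minus the IgG precipitate (vertical axis) for each tested gene of the kinesins and of 4 lists of partner genes (horizontal axis, with the number tested), with a bar at each median. The red points, past the threshold, are 6 kinesin genes and, among the partners, Tsn at -1.28.

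Another 3 genes carry a kinesin name only as a RefSeq synonym and are set apart for that reason. Stard9 and Kifbp are named after their values were seen. Stard9, once called Kif16a, encodes a very large motor related to the kinesin-3 family. Its brighter probe (M300008900) was at 426 and 397 with MVH, 98.9 and 143 with IgG, 169 and 182 on the WCE arrays. The MVH arrays were above the other 4 and the IgG arrays lowest. It was 3.46-fold higher with MVH than with IgG (log2 1.79 ± 0.29, SE, n = 2 each; adjusted p = 0.0174 by limma). Against total RNA it was 1.23 ± 0.29 higher (adjusted p = 0.241). With only the 4 arrays compared, Stard9 did not pass between the precipitates (adjusted p = 0.0533 by limma). Leaving out any 1 array gave differences of 1.52 to 2.05. Its second, dim probe differed by 0.08 between the precipitates, at 11.1 and 11.3 with MVH and 12.8 and 8.80 with IgG. Cenpe, once called Kif10, the motor that tows chromosomes along kinetochore microtubules, was at 30.0 and 17.5 with MVH, 75.1 and 50.8 with IgG, 32.7 and 15.8 on the WCE arrays. Its IgG arrays were the highest, and its difference of -1.43 did not pass. Kifbp, a kinesin-binding protein, was dim, at 2.88 to 7.30 on the 6 arrays.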

How the data were processed

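RNA was amplified to aminoallyl aRNA and labelled with Cy5, with 1 sample per array, per the labels' protocols. The authors deposited 1 intensity per probe and array on a linear scale. How the scanner values were corrected, scaled and blanked is not given in the sources used here. Deposited medians were 30 on 5 arrays and 20.8 on IgG precipitate 2. The number of arrays limits the precision.

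Intensities were converted to log2 and centred on each array's median. A linear model over all 6 arrays was fitted with limma 3.58.1 in R 4.3.3 (lmFit, eBayes; 3 residual and 5.77 prior degrees of freedom). A contrast was tested where all 4 arrays of its groups were listed, with Benjamini-Hochberg adjustment over all probes tested and a threshold of 0.05. The median SE was 0.31. The steps were tested on simulated data. Probe names came from the platform annotation, updated through RefSeq (GRCm38.p6 annotation, names and gene spans only). No coordinates are printed, since the deposited table carries no build.

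Members and lists were chosen with earlier results of these data known. Values on every array are given for Kif17, Kif2b, members past the threshold and the 5 members brightest in total RNA (Kif2c, Kif9, Kif6, Kif20a and Klc3). Partner genes are named if past the threshold. Kifap3, Cluap1, Ift20, Fhl5, Crem, Piwil1 and the other genes given on every array were chosen after their values were seen. Plots used matplotlib 3.10.9.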

Additional observations from a re-analysis of the deposited data

How the results depend on the processing

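The kinesin counts and medians and the calls over all probes were recomputed with 16 alternatives, 6 of which left out 1 array. So were the called members, the 5 members brightest in total RNA, Kif15, Kif18a and Stard9. Sycp3, Tsn, the other markers and the partner lists were not recomputed singly. With only the 4 arrays compared, 0 of all 21574 probes passed between the precipitates, so none of these genes did. Between the MVH and IgG precipitates, 5 kinesin genes higher and 1 lower became 3 and 0 with no centring and 0 and 0 with only the 4 arrays compared. The calls over all probes, given below, fell in these fits too. Fewer kinesin genes, and fewer of all probes, passed when any 1 array was left out. Between MVH and total RNA, 0 higher became 2 without the dimmest 25% of probes. The count was also 2 with an offset of 2.7 before log2 and under a variance trend. It was 1 where a probe had to be listed on all 6 arrays. Over all probes, 100 of 17559, 74 of 21793, 132 of 21793 and 23 of 21241 were higher in these fits. Between IgG and total RNA, 0 higher and 0 lower became 3 and 1 without the dimmest 25%, where 773 and 410 of 17549 probes passed. They became 4 and 1 with a variance trend, where 798 and 455 of 21413 probes passed. They were 2 and 1 with an offset, with blanks removed (6 listed arrays required) and with centring on the 75th percentile. Over all probes, those 3 fits gave 621 and 341, 344 and 125, and 150 and 61. They were 2 and 0 with 1 probe per gene (80 and 19 of 15225 probes). With quantile normalization they were 1 and 0 (112 and 29 of 21413 probes). With the replicate block the MVH and IgG counts were 5 and 1, where 1100 and 1163 of 21574 probes passed. Kif5b (adjusted p = 0.0452 by limma) was then the 1 kinesin gene higher with IgG than in total RNA, where 123 of 21413 probes were. The labels do not say that numbers pair arrays, and deviations of same-numbered arrays correlated at 0.101 to 0.157.

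Over all probes, the calls between the precipitates (824 higher and 895 lower) became 702 and 121 with no centring, which moved the median of all probes to 0.34, and 0 and 0 with only the 4 arrays compared. Directions turned at values that did not pass. With no centring, Klc3 turned to 0.0146 between the precipitates and to -0.13 between IgG and total RNA, and Kif9 to -0.14 between IgG and total RNA too. Leaving out 1 array gave ranges across 0 for Klc3 (-0.60 to 0.10, -0.24 to 0.00535 and -0.22 to 0.48 in the 3 comparisons), Kif15 (-0.13 to 0.80 between the precipitates), Kif2c (-0.14 to 0.89 for MVH and -0.71 to 0.0572 for IgG, each minus total RNA), Kif6 (-0.49 to 0.35 for MVH minus total RNA) and Kif9 (-0.12 to 0.38 for IgG minus total RNA). The causes were not tested. Dim probes limit the size of a fold, as intensities near the lowest listed values (1.3 to 2) carry little signal.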

Other observations

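The difference between the MVH and IgG precipitates had little relation to brightness or to the length of a gene's genomic span. Across the 42 kinesin genes, Spearman's rho with mean log2 intensity was -0.01, against -0.02 over all 21574 probes tested. With genomic span it was 0.11 over 41 kinesin genes and 0.07 over 15467 probes. For MVH minus total RNA, rho with genomic span was 0.14 over 42 kinesin genes and 0.20 over 15647 probes. These are descriptions across genes measured on the same arrays, and genes are not independent replicates.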
